A study of Mus musculus with 2 samples.

Results

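The genes described here are the nuclear genes that encode the protein subunits of the mitochondrial respiratory chain and of ATP synthase, measured in the mouse embryonic hindbrain. They were chosen by symbol alone: protein-coding genes whose GENCODE symbol begins with Nduf followed by a, b, c, s or v and a digit, with Sdha to Sdhd, with Uqcr, with Cox4 to Cox8 or with Atp5, leaving out Atp5s and Atp5sl. The rule took 83 of the 43346 genes in the deposited tables, of which 21474 are protein coding. By the complex they belong to, 7 encode the core subunits of complex I, 28 its accessory subunits, 4 complex II, 8 complex III, 20 complex IV and 16 complex V (ATP synthase). Ndufa4 and its paralogue Ndufa4l2 carry complex I names but are placed with complex IV here, where NDUFA4 protein is known to sit.

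The series holds total RNA-seq of hindbrain from B6NCrl mouse embryos at 14.5 days, as 1 group of 2 libraries. The labels describe each library as a single hindbrain from 1 pup, collected on different days, and also list the sex as pooled and give both the same donor identifier. Both started from 10 ng of RNA longer than 200 nt, with spike-in RNA added. No treatment, mutation or second tissue was compared, so the comparisons are between complexes, between paralogues and between the replicates.

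Complex I takes electrons from NADH and complex II from succinate, complex III passes them from ubiquinol to cytochrome c, and complex IV hands them to oxygen. Complexes I, III and IV pump protons across the inner mitochondrial membrane, and ATP synthase uses the proton gradient to make ATP. Most subunits are nuclear encoded, made in the cytosol and imported, while a small set that includes the catalytic subunits of complex IV is encoded by mitochondrial DNA. Several complex IV subunits exist as paralogues that differ between tissues, with forms known from heart and skeletal muscle, lung, smooth muscle and testis. Developing neurons and their progenitors depend on this system to differing degrees.

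Gene counts summed to 33727977 in replicate 1 and 32450699 in replicate 2. The 83 genes took 509137 and 458340 of them, or 1.51% and 1.41%. Spike-in RNA held 8.15% and 7.72% of the TPM (a transcript's share of all transcripts in the library, corrected for length). Of 9 hindbrain markers, 8 reached 1 TPM in both replicates (Egr2 was at 1.37 and 0.91 TPM), and all 8 neuron markers did. The replicates differed in markers of other cell types. Choroid plexus markers summed to 1951 TPM in replicate 1 and 1182 in replicate 2, of which Ttr alone held 1825 and 1094. Among the 8 choroid plexus markers, Kl, Otx2 and Prlr had more TPM in replicate 2, while the others had less. Red cell markers summed to 12355 TPM in replicate 1 and 14176 in replicate 2. Of the 7 red cell markers, Hbb-y alone went the other way, from 534 TPM in replicate 1 to 137 in replicate 2.

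Almost the whole set was expressed, and at high levels. Of the 83 genes, 79 reached 1 TPM in both replicates, against 62.5% of all protein-coding genes. A mean of at least 100 TPM was reached by 73, at least 500 TPM by 26 and at least 1000 TPM by 4, namely Atp5b, Cox6b1, Ndufa4 and Cox8a. The median member ranked 334 among the 21474 protein-coding genes. Together the genes held 35753 TPM in replicate 1 and 33437 in replicate 2. The 13 protein genes of mitochondrial DNA held 33699 and 31486 TPM, a similar amount from far fewer genes. The members lie on 19 chromosomes, with 3 on X (Ndufa1, Ndufb11 and Cox7b). The 4 genes not detected in both replicates, Cox7b2, Cox6a2, Cox8b and Cox8c, are all complex IV paralogues.

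The complexes differed in the level of their typical subunit. The median core subunit of complex I stood at 198 ± 12.5 TPM (SD, n = 2 replicates), the lowest of the 6 groups. Complex II followed at 232 ± 7.32 TPM, and the accessory subunits of complex I at 309 ± 22.5 TPM. Complex III had a median of 417 ± 17.5 TPM and complex V of 629 ± 30.7 TPM. For complex IV the median was 420 ± 23.4 TPM over all 20 genes and 611 ± 46.9 TPM over the 16 detected, because its set includes paralogues that were nearly silent. Complexes III and IV (all genes), and complex V and the detected part of complex IV, did not differ beyond the spread between replicates. Members of a complex are not replicates of it, so no test was made between complexes. The groups with the lowest medians also had the longest genes. Median length was 1046 bases for the core subunits and 1214 for complex II, against 540 to 670 for the other groups. The part of length in the order of the complexes was not tested.

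**Figure D1:**
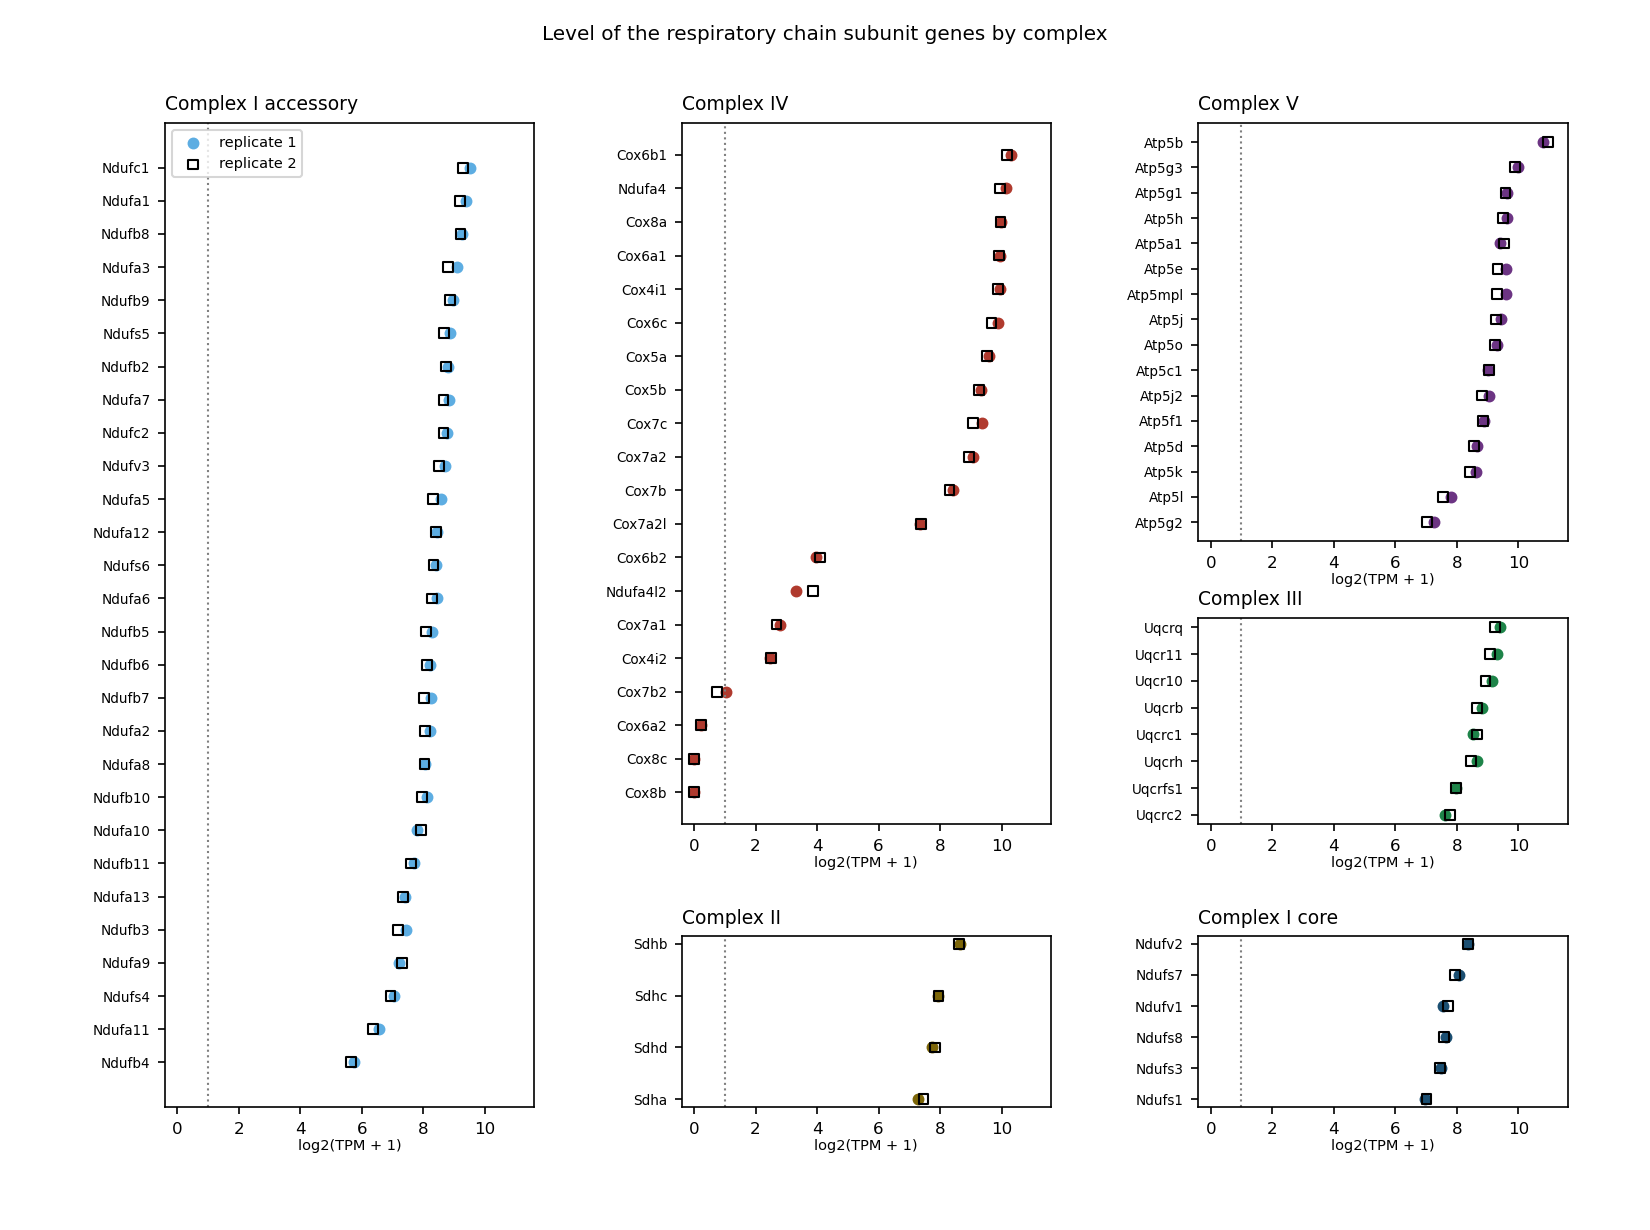
Level of the genes described here as log2(TPM + 1) on the horizontal axis, by complex, with filled circles for replicate 1 and open squares for replicate 2 and a dotted line at 1 TPM. All genes of complexes I, II, III and V lie far to the right of the line, while complex IV splits into 12 genes above 100 TPM and 8 below 20 TPM, with Cox8b and Cox8c at 0.

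Within complex I, the 7 core subunits carry the flavin and the iron-sulphur clusters. They lay within a 2.61-fold range. Ndufv2, an iron-sulphur subunit of the NADH-oxidising module, was the highest at 327 TPM in replicate 1 and 331 in replicate 2. Ndufs7, which holds the last cluster before ubiquinone, had 269 and 245 TPM. Ndufv1, the flavin-binding subunit, had 189 and 209 TPM. The lowest core subunits were Ndufs3 at 179 and 175 TPM and Ndufs1, the largest, at 123 and 129 TPM. For Ndufv2, Ndufs3 and Ndufs1 the replicates lay within 6 TPM of each other, less than the distance between these genes.

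The accessory subunits surround the core and are needed for assembly and stability. They spread over a 13.2-fold range, wider than the core, though over 28 genes against 7. The lower end of that range is Ndufb4, whose level is uncertain for the reason given below. Ndufc1 was the highest at 723 and 623 TPM, followed by Ndufa1 at 671 and 581 TPM and Ndufb8 at 611 and 590 TPM. All 3 encode small subunits of the membrane arm. At the other end stood Ndufa11, a membrane subunit, with 92.5 and 81.9 TPM. Its listed length was 2661 bases, against a median of 641 for the accessory subunits. With 5066 and 4098 counts it had more than Ndufc1 (3786 and 3008), so its low TPM depends on that length. Ndufb4, another membrane arm subunit, was listed lowest with 52.4 and 49.5 TPM.

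The low value of Ndufb4 (chromosome 16, bases 37647170 to 37654453, minus strand, GRCm38) shares its reads with a copy elsewhere. The annotation lists Ndufb4c as a processed pseudogene of 390 bases, and its 390 bases are identical to the whole coding sequence of Ndufb4. The first 90 bases of both are shown because no read inside them can tell the genes apart; capitals would mark a difference, and there is none.
Ndufb4: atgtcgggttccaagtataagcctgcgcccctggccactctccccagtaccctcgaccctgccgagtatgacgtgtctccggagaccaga
Ndufb4c: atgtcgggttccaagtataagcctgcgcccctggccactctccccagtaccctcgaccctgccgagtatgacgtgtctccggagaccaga
Ndufb4c was listed at 345 TPM in replicate 1 and 292 in replicate 2, which is 86.8% and 85.5% of the sum of the pair. That sum was 397 and 342 TPM, above the median of the accessory subunits, while Ndufb4 alone was the lowest of them. How the reads divide between the pair is set by the authors' quantification, so the level of Ndufb4 by itself is uncertain. Of 10 processed pseudogenes whose symbols match the pattern, the other 9 were under 20 TPM. Cox6c2, 97.0% identical to the coding sequence of Cox6c, had 14.3 and 7.90 TPM, against 941 and 815 TPM for Cox6c. Expected counts were whole numbers in both replicates (within 0.005) for 55 of the 83 genes, so reads that fit more than 1 gene touched the other 28.

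Complex II, succinate dehydrogenase, has 4 subunits, all nuclear encoded. The iron-sulphur subunit Sdhb was the highest at 396 and 390 TPM. The membrane anchors Sdhc and Sdhd had 242 and 246 TPM and 212 and 229 TPM. The flavoprotein Sdha, the longest of the 4 genes, was the lowest at 155 and 175 TPM. The replicates of each gene differed by less than the steps between Sdhb, Sdhc and Sdha.

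In complex III the small subunits led. Uqcrq had 680 and 603 TPM, Uqcr11 had 635 and 545 TPM and Uqcr10 had 569 and 487 TPM. Neighbours in this order overlapped between replicates. The Rieske iron-sulphur protein gene Uqcrfs1, which carries electrons to cytochrome c1, stood at 252 TPM in each replicate. The core protein gene Uqcrc2 was the lowest at 193 and 220 TPM.

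ATP synthase held the gene with the highest level of the set. Atp5b, the catalytic beta subunit, had 1784 TPM in replicate 1 and 1999 in replicate 2 (chromosome 10, bases 128083273 to 128090391). Atp5g3, a gene for the membrane subunit c, had 1022 and 953 TPM, and Atp5g1, another subunit c gene, had 796 and 766 TPM. The alpha subunit Atp5a1, which alternates with beta in the catalytic head, had 674 and 742 TPM. The lowest genes of the complex were Atp5l at 223 and 186 TPM and Atp5g2 at 151 and 131 TPM. Beta thus stood above alpha in both replicates, by more than the spread of either. Outside the symbol pattern, Atpif1, the inhibitor of ATP synthase, had 1255 and 1149 TPM. Usmg5, a small subunit of the membrane part that the pattern does not take and that was picked out after its values were seen, had 1452 and 1278 TPM.

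The paralogue sets of complex IV were each dominated by the widely expressed form. In these 7 sets, which together hold 16 genes, 8 paralogues were under 20 TPM. Cox4i1 had 991 and 949 TPM, and Cox4i2, the lung form, had 4.54 and 4.64 TPM. Cox4i1 thus held 99.5% of the pair in each replicate. Cox6a1 had 989 and 968 TPM, and Cox6a2, the heart and skeletal muscle form, had 0.17 and 0.18 TPM, from 2 counts in each replicate, under a floor of 3 counts and so barely detected. The ratio was 5819 in replicate 1 (95% interval from counting error 1636 to 48807) and 5379 in replicate 2 (1464 to 43664).

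Cox8a, the widely expressed form of the smallest subunit, had 1015 and 998 TPM. Cox8b, the muscle form, and Cox8c, known from testis, had no count in either replicate. Against a floor of 3 counts per library, Cox8a was at least 1903-fold and at least 1710-fold higher than Cox8b in replicates 1 and 2. Against Cox8c it was at least 2728-fold and at least 2452-fold higher. The floor corresponds to 0.53 and 0.58 TPM for Cox8b and 0.37 and 0.41 TPM for Cox8c, so the 0 counts allow levels up to these values. Intervals and floors cover counting error only.

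Other paralogues were low but present. Cox6b1, which joins the monomers of complex IV, had 1273 and 1157 TPM, and its testis-associated paralogue Cox6b2 had 14.7 and 15.96 TPM. Cox7b had 339 and 316 TPM, and Cox7b2 had 1.06 and 0.69 TPM, from 10 and 6 counts. The set of Cox7a was the least one-sided in complex IV. Cox7a2 held 534 and 491 TPM and Cox7a2l 161 and 166 TPM, while the muscle form Cox7a1 had 6.0 and 5.41 TPM. The product of Cox7a2l is known for joining complexes III and IV into a supercomplex rather than for replacing Cox7a2. Ndufa4 had 1140 and 983 TPM against 8.86 and 13.5 TPM for Ndufa4l2, a gene known to be induced by hypoxia and expressed in pericytes.

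Marker genes of the tissues in which the minor forms are known were measured in the same libraries. Of 12 skeletal and heart muscle markers, 2 reached 1 TPM in both replicates; their sums were 12.7 and 9.94 TPM, and none was at 0 in both. All 9 pericyte and smooth muscle markers were detected, with sums of 246 and 230 TPM. None of 6 testis germ cell markers was detected, with sums of 0.88 and 0.51 TPM and Prm2, Tnp1 and Pgk2 at 0. Whether such cells carried the low paralogues was not tested. In bulk tissue, few cells with a high level and many cells with a low level cannot be told apart.

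Subunit c of ATP synthase followed another pattern, with all 3 genes well expressed. Atp5g3 held 51.7 ± 0.27% of the set (SD, n = 2), Atp5g1 40.9 ± 0.70% and Atp5g2 7.37 ± 0.43%. The 3 genes are known to encode the same mature protein behind different import sequences. The first 90 bases of the stretch for the mature subunit are shown because they are where the genes are most alike and still differ. Capitals mark the bases at which the genes are not all alike.
Atp5g1: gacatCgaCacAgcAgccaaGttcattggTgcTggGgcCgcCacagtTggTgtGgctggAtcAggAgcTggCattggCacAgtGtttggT
Atp5g2: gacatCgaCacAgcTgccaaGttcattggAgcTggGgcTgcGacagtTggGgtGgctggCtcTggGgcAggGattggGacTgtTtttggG
Atp5g3: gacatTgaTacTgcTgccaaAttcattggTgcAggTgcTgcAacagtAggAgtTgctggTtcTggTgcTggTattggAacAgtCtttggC
All 22 differing bases shown stand at the third position of a codon. Over the last 75 codons and the stop, 228 bases, 58 positions differed, 52 of them at codon position 3. Pairwise identity over this stretch was 78.5% to 85.1%, and over the upstream part, which holds the import sequence, 52.2% to 56.8%. The loci are chromosome 11 (96068852 to 96075670) for Atp5g1, chromosome 15 (102662864 to 102672352) for Atp5g2 and chromosome 2 (73908447 to 73911326) for Atp5g3.

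The replicates were then compared gene by gene. An exact two-sided binomial test asked whether a gene's counts split between the libraries as the gene totals did, with Benjamini-Hochberg adjustment over 17664 genes. With 1 group of 2 libraries it compares these libraries and not conditions, and whether the embryos, the collection days or the library preparations set a difference cannot be told apart. Of the 79 members tested, 8 were higher in replicate 2, 61 were lower and 10 were not called. The background was 15.7% of all genes higher and 18.7% lower. The test calls smaller differences in genes with more counts, and this background was not matched for counts. With a 2-fold minimum no member was called, against 3.01% of all genes. With the spike-in total as the scale, 16 members were higher and 33 lower, against 35.2% and 8.46% of all genes.

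The differences were small. Among the 73 genes of at least 100 TPM, the ratio of TPM in replicate 2 to replicate 1 lay between 0.81 and 1.14. On the log2(TPM + 1) scale the median member changed by -0.09, against 0.05 for all genes of at least 1 TPM. Scaling by TMM factors called 11 higher and 56 lower (20.8% and 14.7% of all genes), and by DESeq2 size factors 11 and 57 (19.5% and 15.6%). Without the count filter the calls were 8 and 61, of 81 tested (10.6% and 12.5% of all genes). Under 6 other settings of pseudocount, unit or scale the median member differed from the median gene by -0.14 to -0.15. Several choroid plexus and red cell markers moved between the same libraries, in neither list all the same way. Their part in the members' values was not tested.

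The genes lower in replicate 2 were mainly short: 54 of the 61 were under 1000 bases. Of the accessory subunits of complex I, 26 of 28 were lower and none was higher. In complex V 14 of 16 were lower, in complex III 6 of 8, and in complex IV 11 of the 16 tested. Among all genes tested 18.7% were lower, and among those under 1000 bases 35.0%, in neither case matched for counts. Ndufa3, a small membrane subunit of complex I, went from 548 to 444 TPM (-0.30 on the log2(TPM + 1) scale; adjusted p = 4.1e-20, exact binomial test). Atp5mpl, a small ATP synthase subunit, went from 780 to 634 TPM (-0.30; adjusted p = 1.6e-27). Ndufa5, Cox7c and Atp5e, all small subunits, completed the 5 with the lowest ratios, at -0.28, -0.28 and -0.27.

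The genes higher in replicate 2 included Ndufv1, Ndufs1, Sdha, Uqcrc1, Atp5a1, Atp5b and Ndufa4l2. Apart from Ndufa4l2, those named encode large catalytic or core proteins. Atp5b rose by 0.16 on the log2(TPM + 1) scale (adjusted p = 1.8e-38, exact binomial test) and Sdha by 0.17 (adjusted p = 7.1e-08). Ndufa4l2 differed most, from 163 to 227 counts, a change of 0.56 (adjusted p = 0.0017). Beside it, of the 9 pericyte and smooth muscle markers Cspg4 was higher and Pdgfrb and Vtn were lower, and Hif1a, a factor of the hypoxia response, went from 81.9 to 91.4 TPM and was called higher. Epas1, a related factor, had 10.0 and 10.4 TPM and was not called. The part of these genes in the Ndufa4l2 value was not tested. Uqcrfs1 and Atp5c1 were called lower from their counts although their TPM was slightly higher in replicate 2. Members called lower by count and by TPM therefore number 59 of 61. The call of Uqcrfs1 was lost with TMM factors (adjusted p = 0.26, exact binomial test) and DESeq2 size factors (adjusted p = 0.16), and that of Ndufs3 with TMM factors (adjusted p = 0.055). Sdhd and Uqcrc2, not called here, were called higher under TMM, DESeq2 and spike-in scaling.

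**Figure D2:**
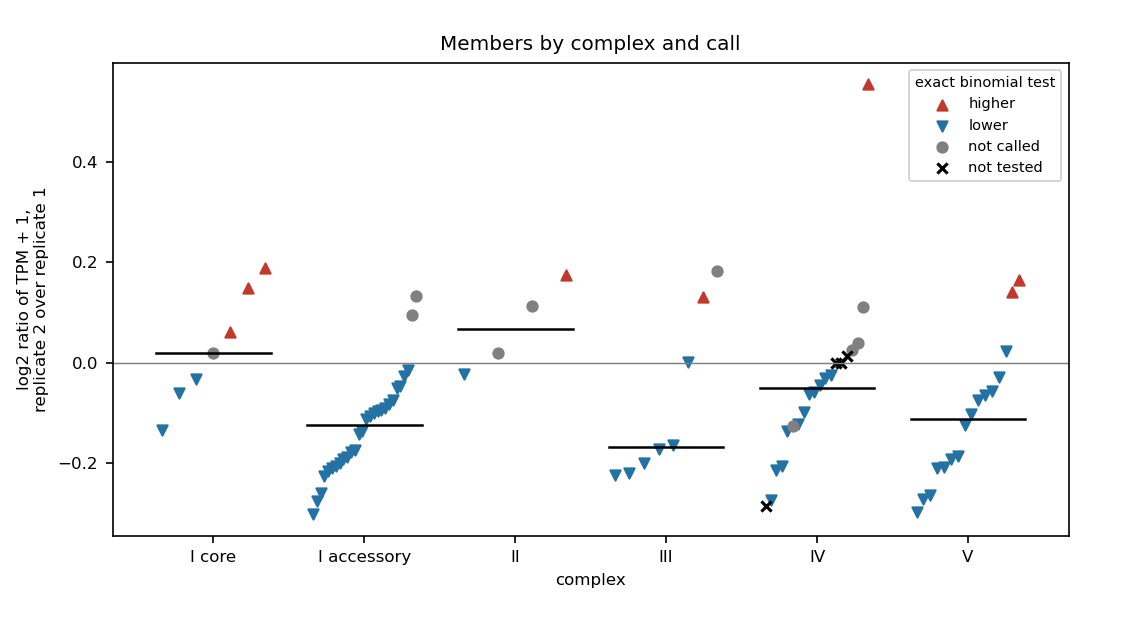
Each of the 83 genes by complex, with its log2 ratio between the replicates (TPM + 1, second over first) on the vertical axis; triangles mark genes called higher or lower by the exact binomial test, circles genes not called, crosses the 4 genes not tested, and bars the median of each complex. Complexes I accessory, III and V lie mostly below 0, and Ndufa4l2 in complex IV stands highest at 0.56.

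The complexes' medians followed the same split. The median log2 ratio was -0.17 for complex III, -0.12 for the accessory subunits, -0.11 for complex V and -0.05 for complex IV. It was 0.02 for the core subunits of complex I and 0.07 for complex II. The median of the core subunits turned negative in FPKM and under TMM and DESeq2 scaling, and that of complex II turned negative in FPKM, so neither direction was stable. That of complex IV lay between -0.12 in FPKM and -0.0051 with spike-in scaling.

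Gene length moved with these ratios in the members and, more weakly over single genes, in all genes. The median member had a length of 658 bases, against 2575 for other detected protein-coding genes. Members under 500 bases had a median log2 ratio of -0.22 (12 genes), and all 794 genes of that length had -0.22. From 500 to 750 bases the values were -0.11 (35 members) and -0.12 (718 genes), and from 750 to 1000 bases -0.07 (12 members) and -0.07 (818 genes). The members' medians thus lay within 0.02 of the median of all genes in each class below 1000 bases.

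Longer members had higher ratios. From 1000 to 1500 bases the median was 0.03 for 12 members and -0.00 for 1899 genes, and from 1500 to 2500 bases 0.14 for 6 members and 0.06 for 4130 genes. On scaled counts instead of TPM, the 1000 to 1500 base medians were -0.04 for the members and -0.07 for all genes, so the length at which the sign turns depends on the scale. Only 2 members were longer still: Sdha rose while Ndufa11, with a listed length of 2661 bases, fell by 0.17. By count, 54 of 59 tested members under 1000 bases were lower and 1, Ndufa4l2, was higher, against 35.0% lower and 2.79% higher among all genes of that length. Of 20 members of 1000 bases or more, 7 were lower and 7 higher, against 16.5% and 17.5%. These shares are not matched for counts. The 73 members of at least 100 TPM had at least 1965 counts in replicate 1 and 1495 in replicate 2. All genes entered the test at a mean of 10 counts, where only larger differences can be called. Across the 79 members of at least 1 TPM, length and ratio had Pearson's r of 0.665 and Spearman's rho of 0.732. Across all 15661 genes of at least 1 TPM, r was 0.211 and rho 0.223, and across 1518 other protein-coding genes of at least 100 TPM, r was 0.574. These are descriptions across genes of the same 2 libraries, and genes are not independent replicates. The part of length in the difference between the replicates was not tested apart from the embryos themselves.

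**Figure D3:**
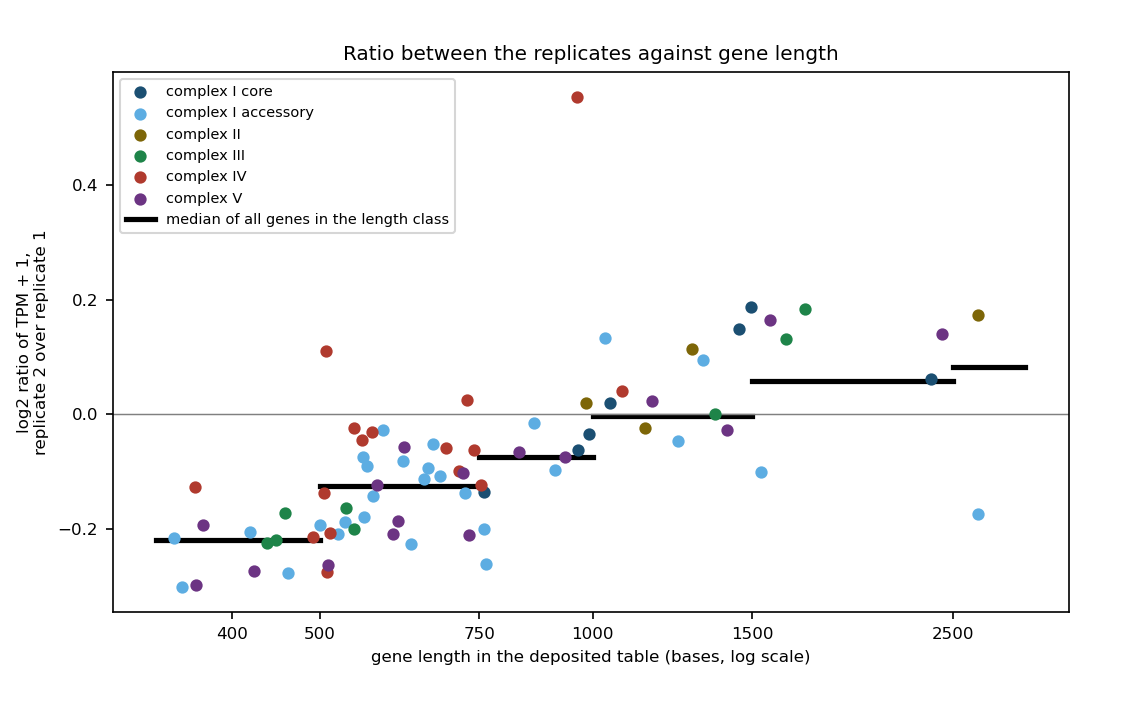
Log2 ratio between the replicates (TPM + 1, second over first) against gene length in bases on a log axis for the 79 members of at least 1 TPM, coloured by complex; black bars give the median of all genes in each length class, with the last class drawn in part. Members lie near the bars, at a median of -0.22 under 500 bases and 0.14 from 1500 to 2500 bases, with Ndufa4l2 (0.56) far above and Ndufa11, the low point at the far right, below them.

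The transcript tables divide each gene among its annotated transcripts. Of the 79 detected members, 23 have 1 listed transcript and 56 several, and the transcript with the highest share was the same in both replicates for all 79. Transcripts annotated as protein coding held 90.0 ± 0.11% of the members' TPM (SD, n = 2). Processed transcripts, which have no annotated reading frame, held 5.16%, retained introns 3.50% and transcripts annotated for nonsense-mediated decay 1.30%. For 72 genes the leading transcript was a coding one.

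In 7 genes it was not. Ndufa5, a subunit of the peripheral arm of complex I, had 88.1% and 90.0% of its TPM in the processed transcript Ndufa5-204. Atp5f1, the b subunit of the ATP synthase stalk, had 63.4% and 62.9% in Atp5f1-203, annotated for nonsense-mediated decay. Atp5j, coupling factor 6, had 61.0% and 62.3% in the retained intron Atp5j-208. The remaining 4 were Ndufb4, Cox5b, Cox7b and Ndufa10, with mean shares of 69.8%, 58.8%, 50.4% and 32.5% in their leading transcript. For Ndufb4, reads of the coding sequence are also divided with the identical Ndufb4c, so its share outside coding transcripts is uncertain. Over all its transcripts, Ndufa10 had 84.2% and 82.2% of its TPM outside coding ones. Among these 7 genes the leading shares were stable between replicates apart from Ndufb4 (65.2% and 74.5%). Over all detected members the leading share of Cox6b2 changed most (41.3% and 53.7%). The shares are the quantifier's division of reads among overlapping transcripts, and they were not checked against reads.

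**Figure D4:**
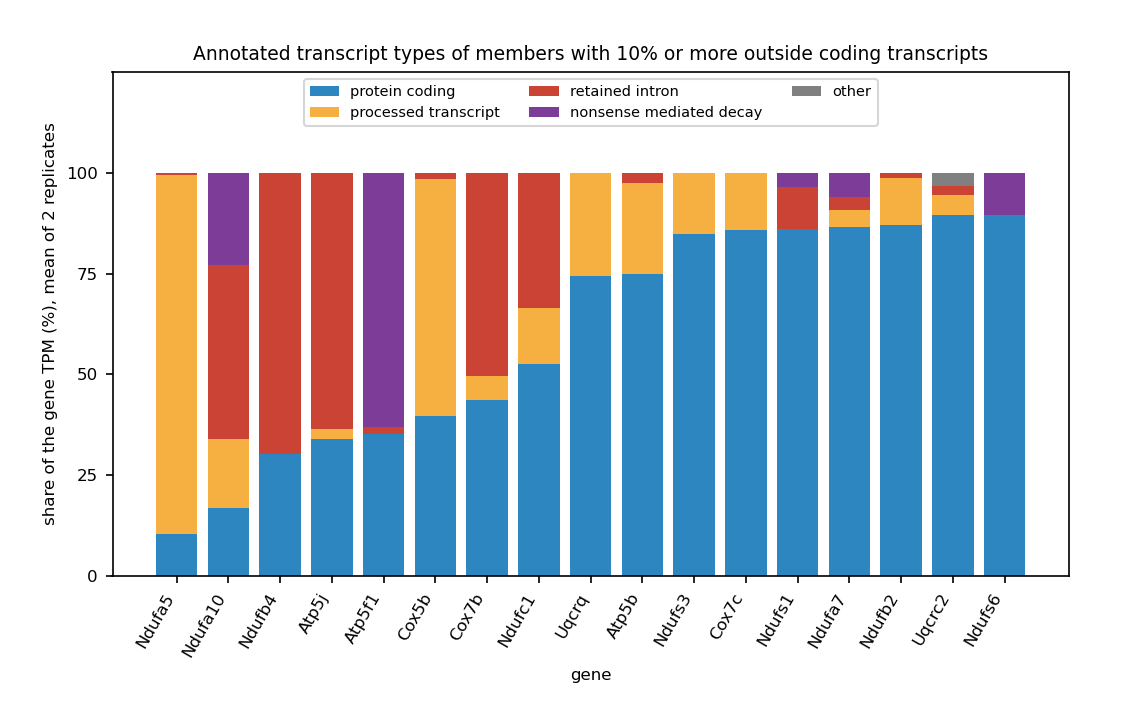
Share of each gene's TPM by annotated transcript type, as the mean of the 2 replicates, for detected members with 10% or more outside coding transcripts. Ndufa5 is mostly in a processed transcript and Atp5f1 mostly in a transcript annotated for nonsense-mediated decay, while retained introns lead in Ndufb4, Atp5j and Cox7b. The shares of Ndufb4 also depend on how its reads were divided with the pseudogene Ndufb4c.

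Nuclear respiratory chain genes are known targets of NRF1, of the ETS factor GABP and of YY1, whose letters were looked for in the RefSeq promoter windows (GRCm38.p6, 250 bases before to 50 after each start). Of the members, 66 matched by symbol, with 71 windows, among 32851 windows in all. The letters searched on both strands were GCGCATGC for NRF1, CCGGAAGT for ETS and AAGATGGCG for YY1, and the first can match both strands at overlapping positions. NRF1 letters were in 14.1% of the members' windows and 2.71% of all windows. YY1 letters were in 9.86% and 1.40%, and ETS letters in 7.04% and 3.89%. In the windows of protein-coding genes the shares were 3.52% for NRF1, 1.83% for YY1 and 5.15% for ETS. In the windows of other genes of at least 100 TPM they were 7.03%, 3.45% and 9.59%. The members' shares rest on 10 windows for NRF1, 7 for YY1 and 5 for ETS. The ETS share of the members was below that of other abundant genes, but with so few windows no difference is drawn from it. At least 1 of the 3 was in 29.6% of the members' windows, in 7.57% of all windows and in 18.9% of those of other genes of at least 100 TPM.

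These stretches show the NRF1 letters, in capitals, near the start of genes from 4 complexes; in Uqcr11 the first capitals are the ETS letters and the second the NRF1 letters. They cover chr15:102671058-102671117 (minus strand), chr5:108434410-108434469 (minus), chr4:140961201-140961260 (plus), chr17:56717682-56717741 (plus) and chr10:80406817-80406896 (minus), in that order.
Atp5g2: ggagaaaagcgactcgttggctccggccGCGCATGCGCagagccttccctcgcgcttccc
Atp5k: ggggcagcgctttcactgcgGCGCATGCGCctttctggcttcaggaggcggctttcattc
Sdhb: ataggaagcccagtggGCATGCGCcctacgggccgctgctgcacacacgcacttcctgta
Ndufa11: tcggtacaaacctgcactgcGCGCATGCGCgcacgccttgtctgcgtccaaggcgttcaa
Uqcr11: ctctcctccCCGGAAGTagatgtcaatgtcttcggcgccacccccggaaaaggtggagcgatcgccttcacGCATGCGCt
In Atp5g2, Atp5k and Ndufa11 the letters read the same on both strands and so match on each.

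The YY1 letters sat elsewhere. Of 7 matches in members, 6 lay at or after the start, and all 7 were on the strand of the gene; over all windows 53.2% of YY1 matches lay at or after the start and 332 of 477 were on the gene strand. Ndufc1 (chr3:51408916-51408941, minus strand) and Ndufs7 (chr10:80249463-80249488, plus strand) are shown as examples, with the YY1 letters in capitals.
Ndufc1: tgcggaacAAGATGGCGccgtccgta
Ndufs7: ggccgaggccAAGATGGCGgcgctgg
Detected members with any match had a median of 370 TPM in replicate 1 and 343 in replicate 2 (21 genes), and those without 399 and 363 TPM (43 genes). The letters thus did not go with a higher level among the members. A match is a description of the sequence, and no binding was measured.

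Genes that assemble or regulate the complexes were mostly expressed below the subunits, with exceptions such as Uqcc2, Higd2a and Coa3. Calls in the lists that follow stand beside 15.7% of all genes higher and 18.7% lower, or 35.0% lower among genes under 1000 bases. All 15 complex I assembly factors were detected, with medians of 31.4 and 35.5 TPM. Ndufaf3 was the highest at 73.9 and 65.8 TPM and Nubpl, an iron-sulphur carrier, the lowest at 4.96 and 4.92 TPM; 4 were lower in replicate 2 and none higher. All 4 complex II factors were detected, led by Sdhaf4 at 91.0 and 84.0 TPM, and 2 were lower. Of 6 complex III factors, all detected, 2 were higher and 2 lower, with Uqcc2 at 320 and 290 TPM the highest. Of 19 complex IV factors 18 were detected, 1 was higher and 10 lower. Coa3 led at 202 and 196 TPM, and Pet117 was listed at 1.64 TPM in replicate 1 and at 0 in replicate 2. All 4 complex V factors were detected and 2 were lower, with Fmc1 at 168 and 157 TPM. Of 7 genes for supercomplexes and inner membrane shape, 2 were higher and 1 lower, with Higd2a at 217 and 211 TPM.

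All 14 regulators were detected and 4 were higher in replicate 2: Ppargc1a and Pprc1, coactivators of mitochondrial genes, Yy1 and Hif1a. None was lower. Among all genes of 1000 bases or more, 17.5% were higher. Pprc1 went from 14.6 to 23.4 TPM and Ppargc1a from 16.7 to 20.8 TPM, while Nrf1 (26.0 and 26.8 TPM) and Gabpa (15.8 and 17.4 TPM) were not called. The regulators are long genes, with a median of 2763 bases, a class in which the median of all genes was 0.08. Of the 13 mitochondrially encoded genes, 11 were lower and 1, mt-Nd3, was higher, though mt-Nd1 and mt-Atp6, among those called lower, had slightly more TPM in replicate 2. mt-Atp8 was the highest at 7048 and 7021 TPM, and mt-Nd4l the lowest at 111 and 40.8 TPM. Of 6 measured genes listed outside the rule (Cyc1, Cycs, Cyct, Ndufab1, Atp5s and Atpif1), 5 were detected and 2, Cycs and Atpif1, were lower. The testis cytochrome c gene Cyct had 0.50 and 0.18 TPM.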

How the data were processed

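Total RNA of 2 hindbrains was sequenced. The authors deposited gene and transcript tables with expected counts, TPM, FPKM and posterior mean values with credibility bounds (score), and transcript shares in percent that the authors computed and that were not used, on mm10 with annotation M4 per the file headers. Whether strand was used, and the quantifier's settings, are not stated in these sources. Symbols, types and coordinates come from GENCODE M21 (GRCm38), matched by gene ID without version; 42462 of 43346 genes matched. Expected counts were rounded and compared with an exact two-sided binomial test (scipy 1.17.1) over genes whose counts averaged 10 or more, at an adjusted p of 0.05 (Benjamini-Hochberg). With 2 libraries in 1 group, edgeR's model has no residual degrees of freedom; edgeR 4.0.16 and DESeq2 1.42.0 gave only scaling factors. Ratios are log2 of TPM + 1, which understates low genes. The test was tested on simulated data. P-values measure only the difference between these samples, part of which may be technical.

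Members and lists were chosen with earlier results of these data known. Genes named are all paralogue sets, the 3 highest and 2 lowest of each complex, the 5 highest and 5 lowest called ratios, members under 1 TPM, and the extremes of each list; others are named where a count is broken down. The 97 spike-ins and 26248 other features that are not genes were left out of the gene total. In the lists, Atp5if1 and Dmac2l found no match. Protein sequences were not used here. The values of 1 gene are not reported here.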

Additional observations from a re-analysis of the deposited data

How the results depend on the processing

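The count of members detected lay between 79 and 80 with either replicate left out, each common paralogue kept its lead, and the order of complexes was kept except between III and IV, with ranges of 0.51 to 0.60 (complex I core median over the median of all members), 0.86 to 0.88 (I accessory), 0.61 to 0.69 (II), 1.16 to 1.18 (III), 1.18 to 1.18 (IV) and 1.76 to 1.78 (V). Leaving out a library leaves no ratio between replicates, and no paired analysis was possible because there is 1 group. With the spike-in total, 16 members were higher and 33 lower; with a 2-fold minimum, 0 and 0. The median log2 ratio of all members was -0.16 in FPKM. That of complex I core was -0.050 in FPKM, -0.011 with TMM, -0.020 with DESeq2 and 0.077 with spike-in scaling; that of complex II -0.0030 in FPKM and 0.13 with spike-ins; that of complex IV -0.12 in FPKM, -0.091 with TMM, -0.097 with DESeq2 and -0.0051 with spike-ins. Of the genes named (not of all members), these changed sign with the spike-in total: Atp5g1 (0.0019), Cox4i2 (0.081, called under neither scale), Cox6a1 (0.020), Cox7a2l (0.091), Cox8a (0.026), Ndufb8 (0.025), Ndufs3 (0.0052), Ndufv2 (0.077), Sdhb (0.028), Sdhc (0.093) and Uqcrfs1 (0.052). The cause was not tested. In posterior mean TPM the complex IV median was 1.176 times that of all members, and Cox6a1 and Cox8a held 99.97% of their sets; 41 leading transcript shares moved by less than the replicate SD and 15 by more. Depth limits Cox6a2, Cox7b2, Cox8b and Cox8c, with 10 counts or fewer.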
